A study of Mus musculus with 17 samples.

Results

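The genes described are the 10 that encode the lipopolysaccharide (LPS) receptor complex and the adaptors, kinases and ubiquitin ligase directly behind it: Tlr4, Ly96, Cd14, Tlr2, Myd88, Tirap, Ticam1, Irak1, Irak3 and Traf6. They were picked by symbol, not by their values, from the 35321 gene symbols in the table, and all 10 passed the filter on low counts that left 14920 genes for testing. Polyadenylated RNA was sequenced from HSPC, the hematopoietic stem and progenitor cells that give rise to all blood lineages. They were isolated on a flow cytometer from wild-type C57BL/6J mouse bone marrow. The 17 libraries fall into 5 groups: PBS at day 0 (5 libraries), LPS for 24 h (3), LPS with an interleukin-10 receptor (IL-10R) blocking antibody for 24 h (3), LPS for 72 h (3), and LPS with that antibody for 72 h (3). All injections were intraperitoneal. The design text and the labels disagree on the unit of both doses (micrograms or milligrams), so no dose is given. No group received the antibody without LPS, and the PBS group carries day 0 and no 24 h or 72 h label. Nothing says whether the libraries of a group came from separate mice, so the p-values measure the spread between these libraries, which may be technical.

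Lipopolysaccharide is the outer-membrane glycolipid of Gram-negative bacteria. CD14 hands it to MD-2 (encoded by Ly96), which sits on Toll-like receptor 4 and pairs receptors when it is loaded. At the plasma membrane TIRAP brings in MyD88, on which the IRAK kinases assemble, and IRAK1 passes the signal to the ubiquitin ligase TRAF6 and on to NF-kB and MAP kinases. From endosomes the adaptor TRIF (encoded by Ticam1) drives interferon regulatory factor 3. TLR2, the receptor for bacterial lipoproteins, uses the same TIRAP and MyD88 adaptors, and IRAK3, also called IRAK-M, restrains the pathway at the IRAK step. Mouse HSPC are known to carry Toll-like receptors, and interleukin-10 is a cytokine that damps inflammatory responses.

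Of the 10 genes the 1 with the clearest change was that of the shared adaptor MyD88. Myd88 was 1.82-fold higher at 24 h after LPS, was at 0.974 times the PBS level at 72 h after LPS alone, and was 1.75-fold higher than in PBS at 72 h where IL-10R had been blocked. Tlr4, Ly96, Cd14 and Tlr2 passed the test in none of the 9 comparisons made. The share of all genes called in these comparisons ran from 0% to 37.6%. Ly96 and Cd14 had only 7 to 106 counts per library, so the lack of calls does not show that their levels were stable. Traf6 and Irak3 were higher with the antibody than without it at 72 h, and both calls depended on single libraries.

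The 250 bases upstream of the RefSeq start of Myd88, Irak3 and Traf6 are shown first, because these 3 genes were higher together with the antibody at 72 h. They come from RefSeq (build GRCm38.p6) and are written 5′ to 3′ on the gene's strand, and capitals mark a match to an interferon-response-like element. The windows lie at chr9:119340019-119340268 for Myd88 (minus strand), chr10:120202131-120202380 for Irak3 (minus strand) and chr2:101678170-101678419 for Traf6 (plus strand). The whole Myd88 window lies inside the gene as GENCODE draws it, since a GENCODE transcript starts 1393 bases upstream of the RefSeq start, and another GENCODE transcript begins within the last bases of the window. The end of the Irak3 window nearest the gene is exonic in noncoding transcripts of Tmbim4 on the other strand.
Myd88: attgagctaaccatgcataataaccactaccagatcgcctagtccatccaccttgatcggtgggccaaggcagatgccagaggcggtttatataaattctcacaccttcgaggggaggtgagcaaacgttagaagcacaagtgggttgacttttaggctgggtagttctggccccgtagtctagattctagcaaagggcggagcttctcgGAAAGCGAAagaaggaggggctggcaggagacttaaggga
Irak3: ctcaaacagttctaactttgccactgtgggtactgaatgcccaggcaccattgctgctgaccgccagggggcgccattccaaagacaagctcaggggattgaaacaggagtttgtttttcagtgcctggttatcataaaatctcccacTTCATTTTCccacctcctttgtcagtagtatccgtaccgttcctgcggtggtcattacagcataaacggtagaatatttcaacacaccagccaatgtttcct
Traf6: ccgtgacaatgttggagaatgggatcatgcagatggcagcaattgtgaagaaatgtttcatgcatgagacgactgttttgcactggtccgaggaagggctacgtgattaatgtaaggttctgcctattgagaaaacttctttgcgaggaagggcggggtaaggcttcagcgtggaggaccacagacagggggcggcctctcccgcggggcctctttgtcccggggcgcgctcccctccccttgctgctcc

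Of the 10 genes, 7 had a promoter entry, and 3 motifs were searched on both strands in their windows. The interferon-type element GAAANNGAA was found in 2 windows. In Myd88 it read GAAAGCGAA, 40 to 32 bases upstream of the start, and in Irak3 it read TTCATTTTC, which is the minus-strand form, 102 to 94 bases upstream. The Traf6 window held no match, nor did those of Tlr2, Tirap, Ticam1 and Irak1. Of the 32851 promoter windows of the same length, 7.13% hold this element. The 2 other motifs, GAGGAAGT (as bound by the myeloid factor PU.1; 2.44% of windows) and GGANTTTCC (an NF-kB-like site; 1.07% of windows), matched none of the 7, and the 3 motifs overlapped nowhere in them. Each motif was searched as a fixed string in which N is any base. Other forms of such sites, NF-kB sites among them, were not searched, so no match does not mean no site. These are matches of letters and say nothing of binding.

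Each library held between 10516722 and 16006001 counted reads, and 16431 to 18778 genes were detected. Levels are given as CPM (counts scaled to a common library size) adjusted by edgeR's TMM factors, which were 0.799 for LPS 24 h library 1 and 0.947 to 1.12 for the others. The 10 genes had 7 to 2851 counts per library, so counting error is largest for Ly96. A gene is said to have passed the test, or to have risen or fallen, where edgeR's quasi-likelihood test over all 14920 genes gave a Benjamini-Hochberg adjusted p below 0.05. All 10 HSPC markers checked, such as Kit, Ly6a and Cd34, were detected, with summed levels of 1709 to 2472 CPM in PBS and 1081 to 1229 CPM at 24 h after LPS. Of these 10, 6 fell in LPS 24 h against PBS: Cd34, Flt3, Procr, Mecom, Hlf and Meis1. The same 6 rose from LPS 24 h to LPS 72 h. In LPS 24 h against PBS the median log2 change of the 10 was -1.05. The highest was that of Ly6a, 1.40, which did not pass. PBS library 2 stood apart: 12 monocyte-macrophage markers summed to 3559 CPM there, against 576 to 1300 CPM in the other PBS libraries. The same sum was 220 to 256 CPM in LPS 24 h, 302 to 436 CPM in LPS with antibody at 24 h, 555 to 934 CPM in LPS 72 h and 293 to 584 CPM in LPS with antibody at 72 h. None of the 12 was at 0 in all libraries of a group. All 12 fell in LPS 24 h against PBS (median log2 change -4.28). In LPS 72 h against PBS their median log2 change was -4.74, and none passed, where 0.0201% of all genes were called. The libraries are of bulk sorted cells, so fewer cells of a type and less RNA per cell cannot be told apart.

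Per kilobase of exon, which allows genes to be compared, the order of levels in PBS ran from Irak1 at 36.1 ± 2.59 CPM per kilobase (SD, n = 5) through Myd88 at 21.5 ± 2.90 to a middle group. In that group Irak3 stood at 8.57 ± 0.739, Ticam1 at 7.42 ± 0.655, Traf6 at 7.32 ± 0.447 and Tlr2 at 6.33 ± 0.893 CPM per kilobase. Ticam1 and Traf6 differed by less than either SD, while Irak3 and Ticam1, and Traf6 and Tlr2, differed by more than either SD. The lowest group held Cd14 at 2.97 ± 1.08, Tlr4 at 2.95 ± 1.09, Tirap at 2.90 ± 0.294 and Ly96 at 1.97 ± 1.05 CPM per kilobase, and the first 3 of these differed by less than their SDs. Tirap and Ly96 differed by less than the SD of Ly96 but by more than that of Tirap. Myd88 was at 39.1 ± 9.01 CPM per kilobase in LPS 24 h, where Irak1 was at 31.6 ± 4.46 (SD, n = 3 each), so the first 2 in the order were no longer separated by their spread.

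**Figure D1:**
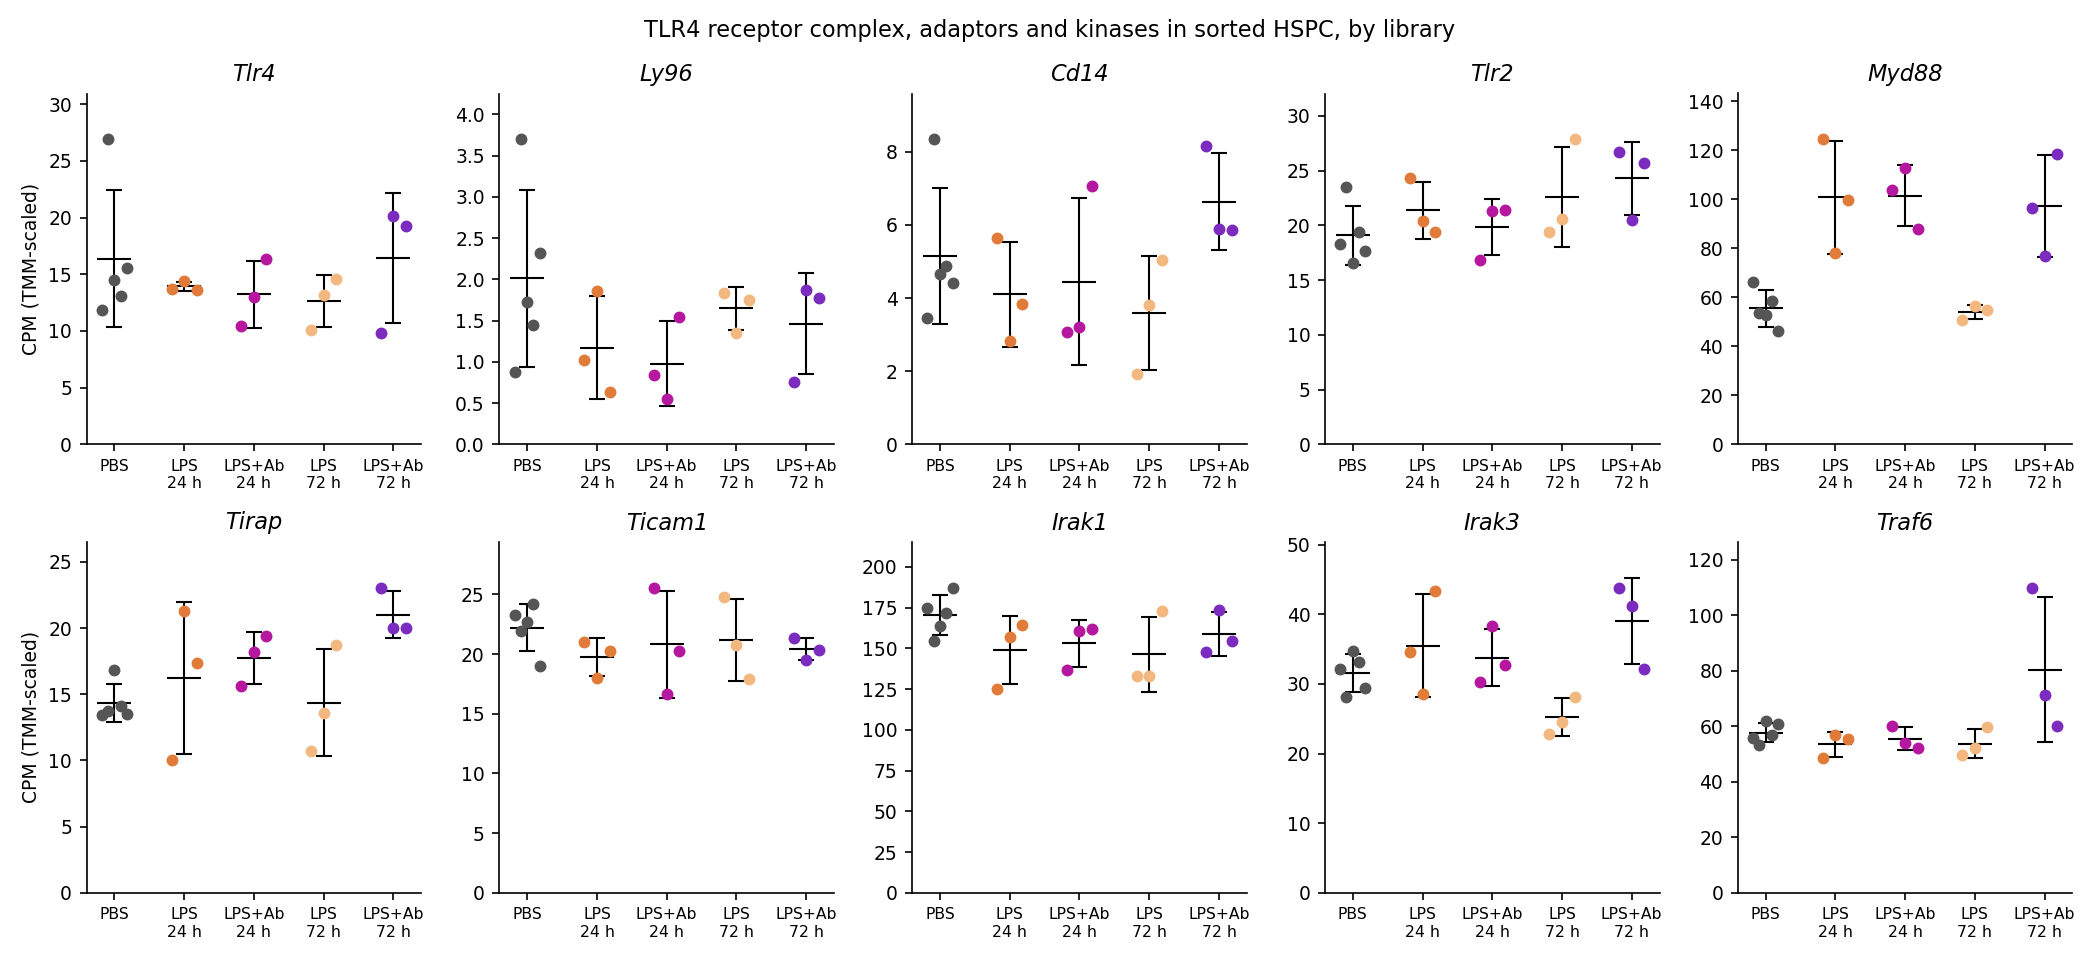
Level of each of the 10 genes in every library, in TMM-scaled CPM on axes that start at 0. Points are libraries (PBS n = 5, other groups n = 3; LPS+Ab is LPS with the IL-10R antibody), long bars the mean and whiskers the SD. Myd88 in PBS and LPS 72 h lies between 46.0 and 66.1 CPM, and every library of the other groups lies at 76.8 CPM or above.

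The LPS receptor gene itself, Tlr4 (GRCm38 chr4, 66827584 to 66930284, plus strand), was at 11.9, 26.9, 14.5, 13.1 and 15.6 CPM in PBS libraries 1 to 5. It was at 13.7, 14.4 and 13.7 CPM in LPS 24 h, and at 10.4, 12.96 and 16.3 CPM in LPS with antibody at 24 h. At 72 h the values were 10.1, 13.2 and 14.6 CPM after LPS, and 9.84, 20.2 and 19.2 CPM after LPS with antibody. The groups overlapped throughout, and only PBS library 2, the one rich in macrophage markers, reached above 20.2 CPM. The log2 change in LPS 24 h against PBS was -0.23 (SE 0.274, edgeR adjusted p = 0.530), and it was 0.02 without PBS library 2. In LPS with antibody at 72 h against LPS 72 h the log2 difference was 0.38 (SE 0.307, edgeR adjusted p = 0.416).

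Ly96 (chr1, 16688051 to 16709611, plus strand), which encodes the LPS-binding subunit MD-2, was the least abundant gene, at 0.879 to 3.70 CPM in PBS (median 1.72) and 0.638 to 1.85 CPM in LPS 24 h. It lay at 0.547 to 1.54 CPM in LPS with antibody at 24 h, 1.35 to 1.83 CPM in LPS 72 h and 0.757 to 1.87 CPM in LPS with antibody at 72 h. The highest value was again in PBS library 2. The lowest fitted log2 change against PBS was -1.03 (SE 0.497, edgeR adjusted p = 0.138), in LPS with antibody at 24 h, on 7 to 19 counts per library. Without PBS library 2 it was -0.70 (edgeR adjusted p = 0.310).

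Cd14 (chr18, 36725067 to 36726798, minus strand), the carrier that delivers LPS to the receptor, was at 3.45, 8.34, 4.65, 4.88 and 4.42 CPM in PBS. The 24 h values were 5.65, 2.82 and 3.83 CPM after LPS and 3.08, 3.20 and 7.07 CPM with the antibody. The 72 h values were 1.92, 3.80 and 5.05 CPM after LPS and 8.16, 5.89 and 5.87 CPM with the antibody. These last 2 groups did not overlap, as was the case for 33.2% of all genes tested in that comparison. The log2 difference between them, 0.88 (SE 0.417), did not pass the test (edgeR adjusted p = 0.157).

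Tlr2 (chr3, 83836272 to 83841767, minus strand) was at 16.6 to 23.5 CPM in PBS (median 18.3), with the highest value in library 2, and at 19.4 to 24.3 CPM in LPS 24 h. It was at 16.9 to 21.4 CPM in LPS with antibody at 24 h, 19.4 to 27.9 CPM in LPS 72 h and 20.5 to 26.7 CPM in LPS with antibody at 72 h. Every pair of groups overlapped. The log2 change of 0.35 (SE 0.159) in LPS with antibody at 72 h against PBS had an edgeR adjusted p of 0.144.

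**Figure D2:**
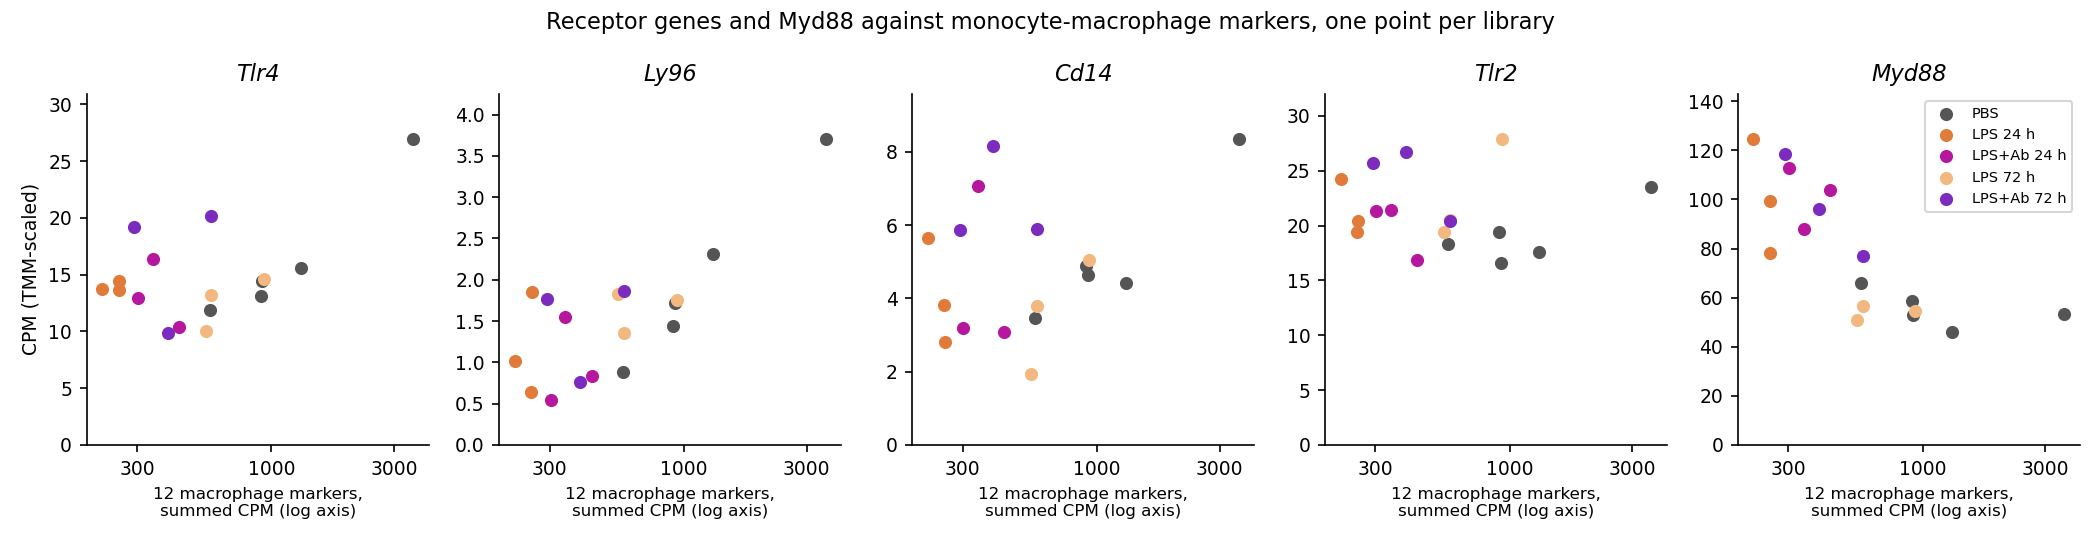
Level of the 4 receptor genes and of Myd88 (vertical axes, TMM-scaled CPM, from 0) against the summed level of 12 monocyte-macrophage markers (horizontal log axis, CPM), 1 point per library. PBS library 2, at 3559 CPM of markers, has the highest Tlr4, Ly96 and Cd14 but a Myd88 of 53.4 CPM, inside the range of the other PBS libraries.

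Tlr4, Ly96 and Cd14 were each highest in the library with the highest macrophage marker sum. C1qa, a complement gene of tissue macrophages, was at 265 CPM in that library and 22.1 to 94.0 CPM in the other 4 PBS libraries, and at 2.197 to 3.71 CPM in LPS 24 h. In the LPS 24 h libraries Tlr4 was at 13.7 to 14.4 CPM. Not all macrophage markers were as low as C1qa there. Lyz2 and Csf1r averaged 99.4 and 75.4 CPM, although both also fell against PBS. What part such cells have in the receptor transcripts was not tested.

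Myd88 (chr9, 119335934 to 119341411, minus strand), the adaptor of TLR4, TLR2, most other Toll-like receptors and the interleukin-1 receptor family, was at 66.1, 53.4, 52.9, 58.6 and 46.0 CPM in the PBS libraries. It was at 124.5, 78.1 and 99.6 CPM in LPS 24 h and at 103.8, 112.8 and 88.0 CPM in LPS with antibody at 24 h. At 72 h it was at 50.8, 56.5 and 54.7 CPM after LPS alone and at 96.3, 76.8 and 118.7 CPM with the antibody. The LPS 72 h libraries lay inside the PBS range, and the libraries of the 3 other treated groups all lay above the highest PBS library.

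Myd88 rose in LPS 24 h against PBS, where it averaged 101 ± 23.2 CPM (SD, n = 3) beside 55.4 ± 7.48 CPM (SD, n = 5), by 0.86 on the log2 scale (SE 0.161, edgeR adjusted p = 0.00126). It was the only one of the 10 genes to pass in that comparison, in which 37.6% of all genes tested were called (19.1% higher). It rose in LPS with antibody at 24 h by 0.87 (SE 0.161, edgeR adjusted p = 0.00448), again as the only one of the 10, against 24.2% of all genes (11.7% higher). The libraries did not overlap with PBS in either comparison, as for 42.8% and 31% of all genes. Both comparisons use the same PBS libraries. Direct comparison of the groups with and without antibody at 24 h gave a log2 difference of 0.01 (SE 0.183) for Myd88, and none of the 10 genes passed there. That comparison called 0% of all genes by edgeR, with 273 genes and none of the 10 at an unadjusted p below 0.05, and DESeq2 called 1 gene. Both 24 h calls of Myd88 held under all 14 alternatives tried, with adjusted p up to 0.0117 and 0.0372.

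By 72 h after LPS alone Myd88 had fallen by 0.90 on the log2 scale from its 24 h level (SE 0.185, edgeR adjusted p = 0.00232, held under 12 of 12 alternatives). Irak3 was the other gene to fall, so 2 of 10 passed in this comparison, where 31.1% of all genes were called (16.4% lower) and 45.4% had groups that did not overlap, as these 2 genes did. Against PBS the log2 change of Myd88 at 72 h was -0.04 (SE 0.165), and none of the 10 genes passed. In that comparison edgeR called 0.0201% of all genes (3 genes), 1 of the 10 (Irak3, log2 -0.32) had an unadjusted p below 0.05, and DESeq2 called 178 genes, none of the 10 among them.

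With the antibody Myd88 was at 97.3 ± 21.0 CPM at 72 h, against 54.0 ± 2.92 CPM after LPS alone (SD, n = 3 each). The difference of 0.85 on the log2 scale (SE 0.185, edgeR adjusted p = 0.00809) held under 12 of 12 alternatives, from 0.68 to 1.04 with adjusted p up to 0.0463. Together with Irak3 and Traf6 this made 3 of 10 genes higher, against 15.1% of all genes called (8.64% higher). Against PBS the rise was 0.81 (SE 0.161, edgeR adjusted p = 0.00897), where 2 of 10 genes passed against 13.2% of all genes (6.81% higher). That call was lost without LPS with antibody 72 h library 3 (log2 0.64, adjusted p = 0.0504). Within the antibody groups the log2 change of Myd88 from 24 h to 72 h was -0.06 (SE 0.183), and none of the 10 genes passed. That comparison called 0% of all genes by edgeR, with 635 genes and 1 of the 10 (Traf6, log2 0.54) at an unadjusted p below 0.05, and DESeq2 called 2 genes, neither of them among the 10.

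Whether the antibody effect on Myd88 was larger at 72 h than at 24 h was tested as an interaction. The difference of the differences was 0.84 on the log2 scale (SE 0.259), with an edgeR adjusted p of 0.0645, so it did not pass, and none of the 10 genes did, against 6.35% of all genes. It passed in 3 of 18 alternatives (adjusted p 0.0307 to 0.168): with DESeq2 (adjusted p = 0.0320) and without LPS 24 h library 2 or without LPS with antibody 72 h library 2.

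The 3 groups with high Myd88 had median macrophage marker sums of 254 to 395 CPM, against 922 CPM in PBS and 584 CPM in LPS 72 h. In LPS 72 h Lyz2 and Csf1r averaged 359 and 228 CPM, and C1qa 1.86 CPM against 94.6 CPM in PBS. Against PBS the 12 markers there had log2 changes of -6.95 to 0.57 (median -4.74), and none passed. The summed HSPC markers were also lower in the 3 groups with high Myd88. Their median sums were 1146, 1395 and 1543 CPM there, against 1936 CPM in PBS and 1944 CPM in LPS 72 h. Ly6a, 1 of those markers, went the other way. It averaged 162, 285 and 261 CPM in the 3 groups, against 61.7 CPM in PBS and 60.6 CPM in LPS 72 h. Against PBS it passed in LPS with antibody at 24 h (log2 2.21, edgeR adjusted p = 0.0298). The part of cell composition in the Myd88 change was not tested. LPS 72 h library 2 and LPS with antibody 72 h library 2 both had a macrophage marker sum of 584 CPM. Their Myd88 levels were 56.5 and 76.8 CPM. These 2 libraries had C1qa at 3.13 and 25.8 CPM and Mertk at 0.254 and 6.91 CPM, so equal sums did not mean equal markers. The exons of Myd88 share 290 bases (11.3% of its merged exon length) with Acaa1a on the opposite strand, and the sources used here do not say whether counting used strand. Acaa1a did not pass in LPS 24 h against PBS (log2 0.34) or between the 72 h groups (log2 -0.43).

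**Figure D3:**
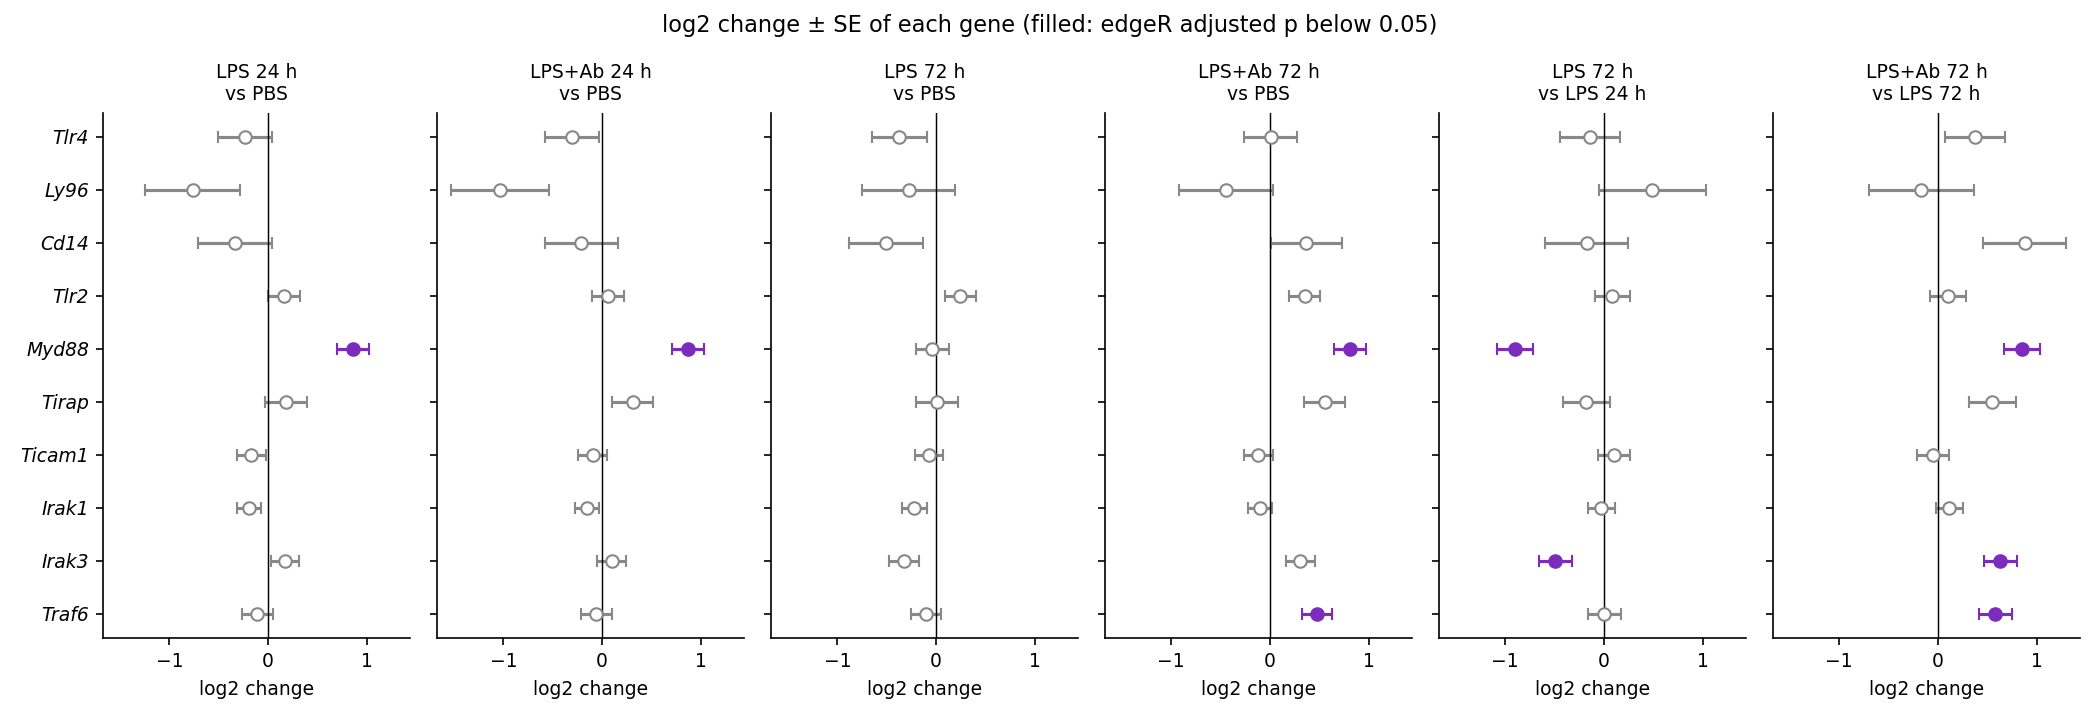
The log2 change (horizontal axes) of each of the 10 genes in 6 comparisons, with whiskers of 1 SE; filled symbols have an edgeR adjusted p below 0.05. Myd88 is filled in 5 of the 6 panels and sits at -0.04 in LPS 72 h against PBS, and the 4 receptor genes are open in all 6.

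Tirap (chr9, 35184551 to 35200291, minus strand), the sorting adaptor that brings MyD88 to the membrane, was at 13.4, 13.7, 16.9, 14.1 and 13.5 CPM in PBS. The values were 10.01, 21.3 and 17.3 CPM in LPS 24 h, 15.6, 18.2 and 19.4 CPM in LPS with antibody at 24 h, and 10.7, 13.6 and 18.7 CPM in LPS 72 h. In LPS with antibody at 72 h they were 23.0, 20.0 and 20.0 CPM, above every PBS library and every LPS 72 h library. Such separation was found for 26.9% of all genes against PBS. The log2 changes of 0.55 against PBS (SE 0.209, edgeR adjusted p = 0.0841) and 0.55 against LPS 72 h (SE 0.238, edgeR adjusted p = 0.124) did not pass, and each passed in 1 alternative. Its exons share 446 bases with Gm39318 and 39 with Srpr, both on the opposite strand. Srpr was itself higher in LPS with antibody at 72 h than in LPS 72 h (log2 0.69).

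Ticam1 (chr17, 56269319 to 56276786, minus strand), the gene of the TRIF adaptor, was at 19.0 to 24.2 CPM in PBS, 17.99 to 21.04 CPM in LPS 24 h and 16.6 to 25.6 CPM in LPS with antibody at 24 h. It was at 17.9 to 24.7 CPM in LPS 72 h and 19.5 to 21.4 CPM in LPS with antibody at 72 h. All groups overlapped, and its largest log2 change against PBS was -0.17 (SE 0.147, edgeR adjusted p = 0.381), in LPS 24 h. So of the 2 adaptors that start the arms of the pathway, MyD88's gene rose at 24 h and TRIF's did not pass the test. The difference between the 2 genes was not tested.

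Irak1 (chrX, 74013914 to 74023918, minus strand), the kinase recruited after IRAK4, was the most abundant, at 155 to 187 CPM in PBS. It was at 125, 157 and 165 CPM in LPS 24 h, at 137, 160 and 162 CPM in LPS with antibody at 24 h, at 133, 133 and 173 CPM in LPS 72 h and at 148, 174 and 154 CPM in LPS with antibody at 72 h. The groups overlapped, and the log2 changes against PBS lay between -0.22 and -0.10. None passed the test.

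Irak3 (chr10, 120141648 to 120202130, minus strand), the restraining IRAK, was at 32.2, 28.1, 34.7, 33.2 and 29.4 CPM in PBS, 34.6, 28.6 and 43.3 CPM in LPS 24 h and 30.3, 38.3 and 32.8 CPM in LPS with antibody at 24 h. At 72 h it was at 22.8, 24.6 and 28.2 CPM after LPS and at 43.8, 41.2 and 32.1 CPM with the antibody. The LPS 72 h libraries were the lowest of the LPS-treated ones, and the groups at 72 h did not overlap. Irak3 was higher with the antibody by 0.63 on the log2 scale (SE 0.166, edgeR adjusted p = 0.0200). This held in 8 of 12 alternatives and was lost without LPS 72 h library 1 (0.56) or 2 (0.61), without LPS with antibody 72 h library 1 (0.58), and in a fit of these groups alone (adjusted p = 0.0585). Its fall of 0.49 between LPS 24 h and LPS 72 h (log2 -0.49, SE 0.166, edgeR adjusted p = 0.0334) held in 5 of 12. Without LPS 24 h library 1 or 3 the log2 change was -0.49 or -0.35, and without LPS 72 h library 1 or 2 it was -0.43 or -0.48, each past the threshold no longer. The interaction of antibody and time was 0.70 (SE 0.233, edgeR adjusted p = 0.0806). Tmbim4, which shares 192 exon bases with Irak3 on the opposite strand, did not pass at 72 h (log2 0.10).

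Traf6 (chr2, 101678429 to 101701669, plus strand), the ubiquitin ligase downstream of IRAK1, was at 55.9, 53.4, 61.7, 56.7 and 60.9 CPM in PBS. It was at 48.5, 56.9 and 55.3 CPM in LPS 24 h, 60.1, 54.0 and 52.2 CPM in LPS with antibody at 24 h and 49.5, 52.1 and 59.6 CPM in LPS 72 h. In LPS with antibody at 72 h it was at 109.9, 71.3 and 60.1 CPM, so that library 1 was high and library 3 lay inside the PBS range. Traf6 rose against PBS by 0.48 on the log2 scale (SE 0.151, edgeR adjusted p = 0.0478) and against LPS 72 h by 0.58 (SE 0.171, edgeR adjusted p = 0.0331). Without library 1 of that group the changes were 0.21 and 0.33 and neither passed. The call against PBS held in 4 of 14 alternatives, being lost also without any single PBS library (0.45 to 0.53), and the call against LPS 72 h held in 6 of 12, being lost also without LPS 72 h library 1 (0.53) or 2 (0.56). That library 1 also had 428.7 CPM of the interferon-inducible chemokine Cxcl10, against 3.74 and 0.849 CPM in libraries 2 and 3, and the part of its state in the Traf6 result was not tested.

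The rest of the pathway was followed through 6 lists of 72 further genes, of which 69 were tested. In LPS 24 h against PBS 6 of the 69 were higher and 17 lower. With the antibody at 24 h 4 were higher and 5 lower, and in LPS with antibody at 72 h 5 were higher and 1 lower. None passed in LPS 72 h against PBS. Shares of each list called are shown in the bar plot of pathway lists, to be read against the shares of all genes given above (37.6%, 24.2%, 13.2% and 0.0201%). From LPS 24 h to LPS 72 h 18 of the 69 were higher and 6 lower, where 31.1% of all genes were called, and between the 72 h groups 4 were higher and 5 lower with the antibody, where 15.1% were.

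**Figure D4:**
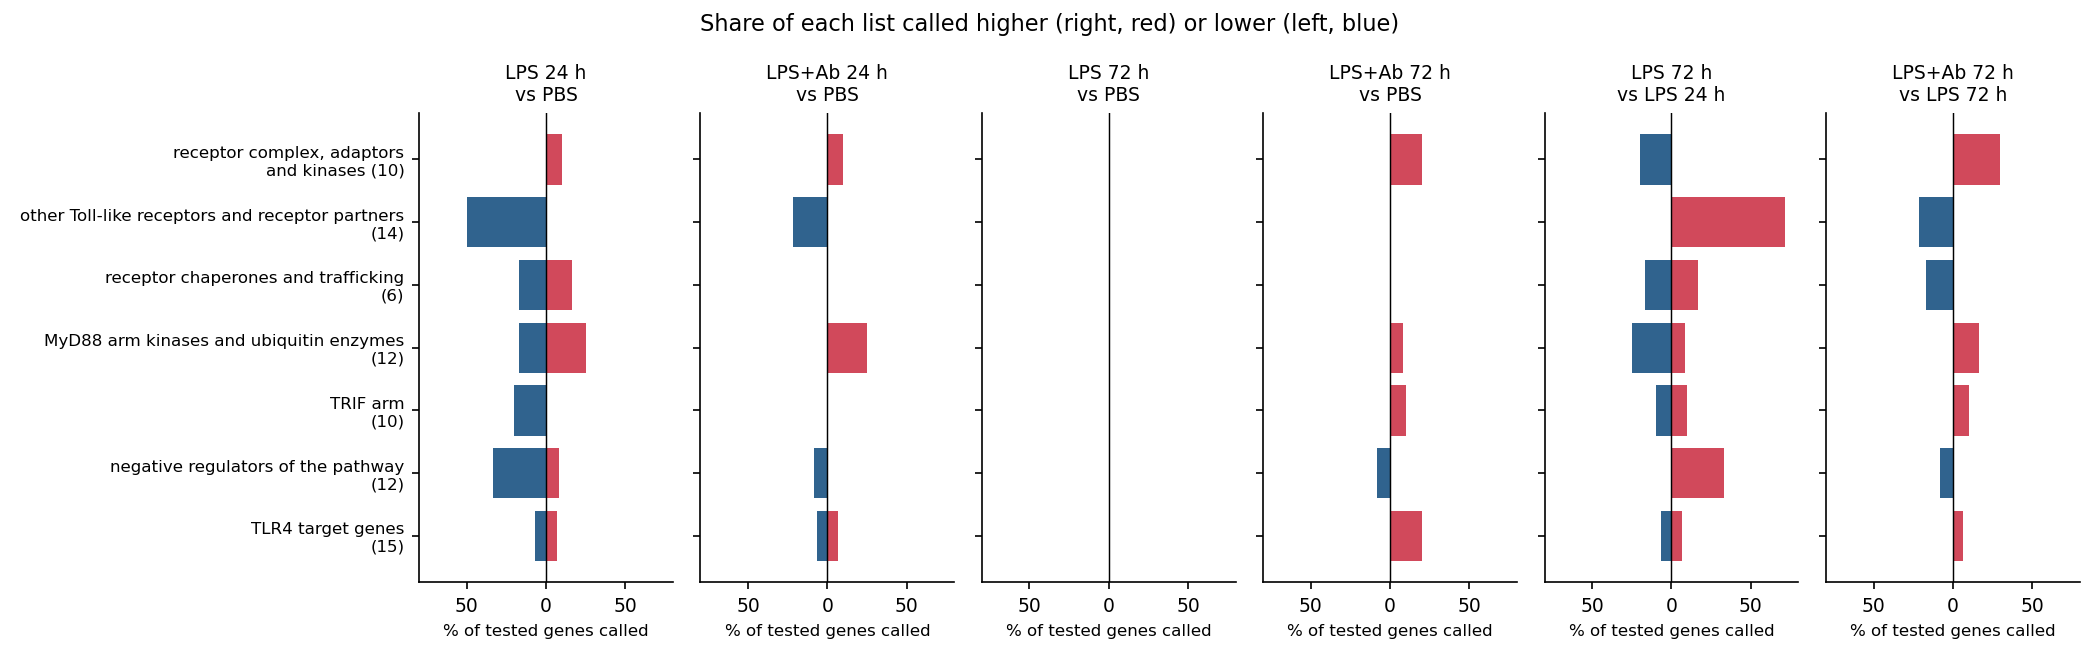
Percent of tested genes called higher (right) or lower (left) in the 10 genes and in each of the 6 further pathway lists, with the number tested in brackets, for 6 comparisons. In the list of other Toll-like receptors and partners, 7 of 14 were lower in LPS 24 h against PBS and 10 of 14 were higher in LPS 72 h against LPS 24 h; the panel of LPS 72 h against PBS is empty.

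Among other Toll-like receptors and receptor partners, 7 of 14 fell in LPS 24 h against PBS and none rose, where 37.6% of all genes were called. The median log2 change was -1.37 beside -0.03 for all genes. Tlr3, an endosomal sensor of double-stranded RNA, was at 5.65 to 13.1 CPM in PBS and 0.556 to 2.68 CPM in LPS 24 h (log2 -2.39, SE 0.575). Tlr7, a sensor of single-stranded RNA, was at 12.7 to 38.1 CPM in PBS and 3.57 to 6.73 CPM in LPS 24 h (log2 -2.32, SE 0.377). Neither group pair overlapped, and both calls held under 14 of 14 alternatives. Tlr8 (log2 -2.71, SE 1.03) lost its call without PBS library 2, 3 or 5 or LPS 24 h library 1 or 3 (log2 -1.92 to -2.77). The macrophage markers fell in the same comparison, and their part in these values was not tested. With the antibody at 24 h 3 of 14 fell, a share near the 24.2% of all genes called there. They were Tlr3 (log2 -2.53), Tlr7 (-1.88) and the B-cell and myeloid receptor partner Cd180 (-0.99). Without library 2 of the antibody group Tlr3 was at -2.11 and not past the threshold. The Cd180 call was lost without PBS library 2 (-0.85) or 5 (-0.95) and without library 1 (-0.94) or 2 (-0.78) of the antibody group.

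Between LPS 24 h and LPS 72 h 10 of the 14 rose and none fell (median log2 change 1.47 beside 0.02 for all genes, of which 31.1% were called). The flagellin receptor gene Tlr5 rose by 3.53 and Itgam, the integrin chain CD11b, by 1.89 on the log2 scale. Both calls held under every alternative that gave a value. Tlr5 was near the floor, at 0 to 0.275 CPM in LPS 24 h and 0.733 to 2.49 CPM in LPS 72 h, so the size of its change is imprecise. Tlr3 rose 4.59-fold, a call lost without LPS 24 h library 1 (1.84) or LPS 72 h library 3 (1.29). At 72 h 3 of 14 were lower with the antibody than without it, where 15.1% of all genes were called: Itgam (log2 -1.33), which held under 12 of 12 alternatives, Tlr1 (-1.38) and Ly86 (-1.03). The Ly86 call was lost without any single library of either group (-0.78 to -1.18), and the Tlr1 call without any but LPS with antibody 72 h library 3 (-0.94 to -1.62). So the 4 receptor genes described above did not pass in LPS 24 h against PBS or in LPS 72 h against LPS 24 h, where several other Toll-like receptor genes did. Between the 72 h groups Tlr1 was the only Toll-like receptor gene called. The difference between the 4 genes and this list was not tested.

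Of 6 receptor chaperones and trafficking factors, 1 rose and 1 fell in LPS 24 h against PBS, a share near the 37.6% of all genes called there. Hsp90b1 (gp96, the chaperone that folds Toll-like receptors) rose by 1.02 on the log2 scale, and Unc93b1 (the escort of the endosomal receptors) fell by 0.68. Hsp90b1 was at 662 to 1014 CPM in PBS and 2425, 1330 and 1385 CPM in LPS 24 h, and without LPS 24 h library 1 its change was 0.70 and no longer passed. Unc93b1 then rose by 1.31 between LPS 24 h and LPS 72 h, and at 72 h it was lower with the antibody (log2 -0.88). These 3 Unc93b1 calls held under every alternative. Hsp90b1 fell between LPS 24 h and LPS 72 h (log2 -0.96), a call lost without LPS 24 h library 1 (-0.61) or LPS 72 h library 1 (-0.83) or 2 (-1.04). So 1 of the 6 rose and 1 fell between these groups, where 31.1% of all genes were called. Between the 72 h groups 1 of the 6 was called, against 15.1% of all genes.

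In the MyD88 arm, 3 of 12 genes rose and 2 fell in LPS 24 h against PBS, a share near the 37.6% of all genes called there. Those that rose were Ube2n (log2 0.65) and Ube2v1 (0.41), which encode the paired ubiquitin-conjugating enzymes that work with TRAF6, and Chuk (0.42), the kinase IKK-alpha. Ube2n and Ube2v1 held under 14 of 14 alternatives and Chuk under 12, being lost with upper-quartile scaling and with library numbers as a block (log2 0.40, adjusted p = 0.0815). The kinase genes Map3k8 (-0.92) and Irak2 (-0.73) fell. The Map3k8 call was lost without LPS 24 h library 1 (-0.95) or 3 (-0.82), and the Irak2 call without any single library but PBS library 5 (-0.66 to -0.81). The same 3 rose in LPS with antibody at 24 h, Chuk by 0.48, Ube2n by 0.47 and Ube2v1 by 0.37, and each lost its call without 1 or more libraries: Chuk without library 2 of the antibody group (0.42), Ube2v1 without library 1 (0.34) or 2 (0.41), and Ube2n without library 2 (0.39) or 3 (0.41) or PBS library 2 (0.49), 3 (0.44) or 5 (0.48).

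Chuk was at 40.3 to 43.3 CPM in PBS, 53.0 to 57.7 CPM in LPS 24 h, 51.4 to 63.2 CPM in LPS with antibody at 24 h, 34.2 to 50.8 CPM in LPS 72 h and 56.0 to 69.1 CPM in LPS with antibody at 72 h. In LPS with antibody at 72 h it rose against PBS by 0.61 (SE 0.124, edgeR adjusted p = 0.00982) and against LPS 72 h by 0.66 (SE 0.142, edgeR adjusted p = 0.00758), and leaving out any library ended neither call. The first was lost with library numbers as a block (adjusted p = 0.0628) and the second in a fit of only those groups (adjusted p = 0.0634). Ube2v1 was 0.40 higher with the antibody at 72 h, a call lost without LPS 72 h library 2 (0.37) or 3 (0.40) or LPS with antibody 72 h library 1 (0.41) or 3 (0.37). From LPS 24 h to LPS 72 h Ube2n (log2 -0.71), Ube2v1 (-0.56) and Chuk (-0.48) fell. The Chuk fall did not pass without LPS 72 h library 1 (-0.38) or 2 (-0.40). Irak2 rose by 0.83, and without any 1 of the 6 libraries it did not pass (0.77 to 0.91).

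In the TRIF arm none of 10 rose and 2 fell in LPS 24 h against PBS, where 37.6% of all genes were called. Ticam2, the adaptor TRAM that bridges TLR4 to TRIF, changed by -0.93 and Tbkbp1, a TBK1 partner, by -0.57. The Ticam2 call was lost without PBS library 2 (-0.90), 3 (-0.93) or 4 (-0.87) or LPS 24 h library 1 (-0.83) or 3 (-0.75), and the Tbkbp1 call without PBS library 1 (-0.52) or 3 (-0.50) or LPS 24 h library 1 (-0.63) or 2 (-0.39). With library numbers as a block both calls were lost too (-0.87 and -0.63). Ticam2 rose from LPS 24 h to LPS 72 h by 1.28 (1.22 or 1.09 and no longer past the threshold without LPS 24 h library 1 or 3), and Traf3 fell by 0.68 under all 12 alternatives. Traf3, the ligase that links TRIF to interferon induction, was 0.74 higher with the antibody at 72 h, a call lost without LPS 72 h library 1 (0.71) or 2 (0.63). Tank, a TRAF-binding adaptor of TBK1, rose in LPS with antibody at 72 h against PBS by 0.42, and this was lost without PBS library 2 (0.46) or 5 (0.38) or any 1 library of the treated group (0.41 to 0.46).

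Of 12 negative regulators, 1 rose and 4 fell in LPS 24 h against PBS, a share near the 37.6% of all genes called there. Sigirr, a decoy-like receptor of the interleukin-1 receptor family that restrains TLR4, was at 47.6 to 57.4 CPM in PBS and 29.0 to 37.7 CPM in LPS 24 h (log2 -0.69, SE 0.187, under 14 of 14 alternatives). It was at 29.6 to 38.6 CPM in LPS with antibody at 24 h, 43.2 to 86.2 CPM in LPS 72 h and 25.9 to 35.8 CPM in LPS with antibody at 72 h. Sigirr rose from LPS 24 h to LPS 72 h by 1.00 (under 12 of 12) and was lower with the antibody at 72 h by 1.10 (log2 -1.10, SE 0.207, edgeR adjusted p = 0.00407), a call lost in a fit of those groups alone (adjusted p = 0.0542). Its lower level in LPS with antibody at 72 h against PBS (log2 -0.79) was lost without library 1 (-0.67) or 3 (-0.75) of that group. The one at 24 h with the antibody (log2 -0.58) was lost without any single library but PBS library 4 (-0.48 to -0.64).

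The other negative regulators named at LPS 24 h were Otulin, a linear-ubiquitin protease, at 0.60, Zc3h12a, the RNase Regnase-1, at -0.66, and Peli1, a ubiquitin ligase, at -0.61. Without LPS 24 h library 1 Otulin was at 0.29 and Zc3h12a at -0.55, neither past the threshold, and Peli1 did not pass without any 1 of the 8 libraries (-0.48 to -0.69) nor with library numbers as a block (-0.57). From LPS 24 h to LPS 72 h 4 of the 12 rose, where 31.1% of all genes were called. Tnip1, an A20 partner, was at 0.49 and held under all 12 alternatives. Zc3h12a rose by 0.54, a call lost without any single library but LPS 24 h library 3 (0.46 to 0.57).

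Classical target genes of TLR4 signalling were mostly not called. Of 18, 15 were tested, and in LPS 24 h against PBS 1 rose and 1 fell, where 37.6% of all genes were called. Sod2, the mitochondrial superoxide dismutase induced by NF-kB, was at 72.9, 62.1, 53.9, 65.3 and 59.4 CPM in PBS, 158.6, 92.4 and 120.5 CPM in LPS 24 h and 163.9, 126.4 and 80.4 CPM in LPS with antibody at 24 h. At 72 h it was at 60.1, 53.7 and 49.7 CPM after LPS and 204.1, 94.0 and 93.5 CPM with the antibody. As with Myd88, PBS and LPS 72 h were the low groups. Sod2 rose by 0.98 in LPS 24 h (0.78 and not past the threshold without LPS 24 h library 1) and by 0.98 in LPS with antibody at 24 h (lost without library 1, 0.72, or 2, 0.96, of that group). It fell by 1.18 from LPS 24 h to LPS 72 h, a call that held under 12 of 12 alternatives, and was higher with the antibody at 72 h by 1.26 (0.83 without library 1 of the antibody group, still past the threshold, but lost in a fit of those groups alone, adjusted p = 0.0519). Against PBS the rise with the antibody at 72 h was 1.06, or 0.61 and not past the threshold without library 1.

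Nfkbiz, an inducible cofactor of NF-kB, fell by 1.34 in LPS 24 h against PBS (14 of 14 alternatives) and rose by 1.13 from LPS 24 h to LPS 72 h. The latter call was lost without LPS 24 h library 1 (0.85) or LPS 72 h library 1 (1.01). Its fall of 0.88 in LPS with antibody at 24 h was lost without any 1 library of that group (-0.727 to -0.996) or without PBS library 2 (-0.84), 3 (-0.80) or 5 (-0.84). Cxcl10 and Ccl5 passed in LPS with antibody at 72 h against PBS (log2 5.48 and 3.84), on library 1 of that group. Ccl5 was at 367.3, 12.7 and 3.11 CPM in the 3 libraries and at 4.91 to 12.3 CPM in PBS. Without library 1 the log2 changes were -0.50 and -0.16, and neither passed. Both calls were also lost without PBS library 2, 3 or 5 (5.33 to 5.57 for Cxcl10), and Ccl5 was lost without PBS library 1 or 4 as well (3.72 to 4.02 over all 5).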

How the data were processed

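The deposited table holds the authors' raw counts, as whole numbers, for 17 libraries and 35321 gene symbols, of which 13321 are at 0 throughout. Per the submitters' processing notes the build was GRCm38 and the tools were HISAT2 2.2.0, Subread, featureCounts 2.1.1, R 4.3.2 and DESeq2. The annotation, the use of strand and the treatment of multi-mapping reads are not given in the sources used here, so counts of overlapping genes are uncertain. Totals of 10516722 to 16006001 counts per library set the precision, and Ly96, with as few as 7 counts, is measured least precisely.

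Groups were taken from the sample titles, and every column was matched to a sample. Genes were kept by edgeR's filterByExpr (minimum count 10, minimum total 15), which left 14920 genes with 99.9% of counts. Libraries were scaled by TMM, and all 17 entered a single fit with group as the only term, tested by edgeR 4.0.16 (quasi-likelihood) in R 4.3.3 with Benjamini-Hochberg adjustment over all genes tested. Standard errors are the log2 change divided by the square root of F. The test was tried on simulated data before use. Alternatives were the Wald test of DESeq2 1.42.0, its size factors and upper-quartile factors in edgeR, testing without the filter, a fit of only the groups compared, a replicate block, leaving out each library, and CPM on the unscaled total. CPM per kilobase used merged GENCODE exon lengths, and upstream sequences are from RefSeq.

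The 10 genes, the pathway and marker lists and the tests were chosen with earlier results of these data known. The text names all 10, and from each pathway list the genes called, at most 3 per direction by size of change, for the comparison described. Genes most like the receptor genes in pattern were taken as the 3 with the highest Pearson r of log2 CPM (prior count 2) over 17 libraries, and the same was done for Myd88 after its values were seen. Overlapping neighbours and single marker genes were named for their position or as values beside a result.

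Library numbers are shared between groups, and the labels do not say what a number means. Deviations from group means were correlated between same-numbered libraries: 14 of 30 pairs were over 0.1 (range -0.415 to 0.723), and PBS with LPS 24 h was the only pair of groups in which all 3 were (0.158 to 0.191). The highest values lay between the antibody groups at 24 h and 72 h, at 0.723 for library 1 and 0.697 for library 3. Library 2 of those groups gave -0.0217. The reported fit used the numbers as pairing in no comparison, and the replicate block was tried only as an alternative.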

Additional observations from a re-analysis of the deposited data

Results flagged for a closer look

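Among the PBS libraries, 1 value stood far from the other 4 for 2 of the 10 genes, where chance gives about 1 in 20 groups. Tlr4 was at 26.9 CPM in PBS library 2 and at 11.9 to 15.6 CPM in the others. That library also had the highest Ly96 and Cd14 and the highest macrophage marker sum, 3559 CPM. Tirap was at 16.9 CPM in PBS library 3 and at 13.4 to 14.1 CPM in the others.

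By the interaction term in edgeR's quasi-likelihood fit, the antibody effect differed between 72 h and 24 h for 4 of the 69 further pathway genes tested. That share is close to the 6.35% of all genes called in the same comparison, so the 4 are not a result about the pathway. For Itgam the difference of log2 changes was -1.86 (SE 0.412, adjusted p = 0.0177), and it passed in 17 of 18 alternatives, failing in a fit of only those groups. For Unc93b1 it was -1.29 (SE 0.263, adjusted p = 0.0139), and it passed in 18 of 18. For Sigirr it was -1.21 (SE 0.291, adjusted p = 0.0265), and it passed in 9 of 18. It was lost without LPS 24 h library 3, LPS with antibody 24 h library 1 or 3, LPS 72 h library 1 or 2, or LPS with antibody 72 h library 1 or 3 (-0.93 to -1.22). For Traf3 it was 0.87 (SE 0.239, adjusted p = 0.0434), and it passed in 5 of 18, in 3 of the 12 fits that left out 1 library (LPS 24 h library 1, LPS with antibody 24 h library 2 or LPS 72 h library 3). In the other 9 of those fits it lay between 0.75 and 0.93.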

How the results depend on the processing

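Of 1220 values of single genes among the 10 under the alternatives, 1109 kept direction and side of the threshold, 29 lost a call, 7 gained one, and 75 changed sign without being called. The causes were not tested. In LPS with antibody at 72 h against PBS 2 of the 10 genes were called; upper-quartile factors or no filter left 1, the replicate block left 0 (Myd88 log2 0.76, adjusted p = 0.0530), and leaving out single libraries left 1 to 2. For the antibody effect at 72 h the count of 3 became 1 in a fit of only those groups and 1 to 4 without single libraries, with Tirap added without LPS 72 h library 3. For LPS 72 h against 24 h the count of 2 became 1 with upper-quartile factors, the replicate block or only those groups, and 1 to 2 without single libraries. For the antibody by time interaction the count of 0 became 2 with DESeq2 and 0 to 2 without single libraries. On the unscaled total, Tlr4 in LPS 24 h averaged 12.9 CPM, Ticam1 there 18.2, and Irak1 and Traf6 in PBS 183 and 62.2 CPM, each further from the scaled mean than 1 SD. Leaving out 1 library moved Cxcl10 in LPS with antibody at 72 h against PBS between -0.50 and 6.08, and Ccl5 between -0.16 and 4.42, the lowest of each being without library 1 of that group, and DESeq2 gave no adjusted p for Cxcl10 there. The replicate block changed no other call of the 10 genes than those of Myd88 and Traf6 against PBS at 72 h with antibody, Traf6 between the 72 h groups and Irak3 between LPS 72 h and 24 h. It lowered the calls over all genes from 3605 to 1721 in LPS with antibody at 24 h against PBS, from 1975 to 374 at 72 h and from 947 to 333 for the interaction. Over all genes, calls ranged with the other settings from 0 to 178 in LPS 72 h against PBS (3 as reported), from 1123 to 3029 for the antibody effect at 72 h (2256) and from 286 to 1709 for the interaction. Without single libraries they fell to 3361 of 5616 in LPS 24 h against PBS, 877 of 3605 in LPS with antibody at 24 h, 583 of 1975 in LPS with antibody at 72 h, 769 of 2256 for the antibody effect at 72 h and 231 of 947 for the interaction. With upper-quartile factors the median over all genes went from -0.03 to -0.16 (log2) in LPS 24 h against PBS, to -0.11 in LPS with antibody at 24 h against PBS and from 0.02 to 0.13 in LPS 72 h against 24 h. The share of calls that were higher moved from 50.7% to 36.8% in the former and from 47.2% to 59.2% in the latter. That share moved from 48.3% to 32.5% and from 51.4% to 32.8% in the antibody groups against PBS at 24 h and 72 h, from 57.1% to 42.4% for the antibody effect at 72 h and from 63.5% to 49.7% for the interaction. Myd88 was called under upper-quartile factors in the same comparisons. Those tests were made against no change, not against the shifted medians. Ly96 and Cd14 rest on 7 to 106 counts per library, so their counting error is the largest of the 10 genes.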

Other observations

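The genes whose pattern over the 17 libraries was most like that of each receptor gene are given as a description, and the libraries share depth and sorting. For Tlr4 they were Nid2 (Pearson r = 0.92, n = 17 libraries), Galnt3 (0.90) and Sgk1 (0.84). For Ly96 they were Lipa (0.90), which encodes lysosomal acid lipase, the endosomal receptor gene Tlr8 (0.88) and Ccdc152 (0.86). For Cd14 they were Gm15832 (0.80), Zfyve9 (0.71) and Cnot2 (0.71), and for Tlr2 they were Ube2w (0.71), Gm44103 (0.70) and Acer3 (0.70). Tlr8 averaged 5.59 CPM in PBS and 0.831 CPM in LPS 24 h, and Ly96 2.01 and 1.17 CPM.

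Myd88 was followed more closely than any receptor gene. The 3 genes most like it were Mthfd2, a mitochondrial enzyme of one-carbon metabolism (r = 0.98, n = 17 libraries), Srp19, a subunit of the signal recognition particle (0.97), and Smn1, which serves in spliceosome assembly (0.97). Mthfd2 averaged 34.7 CPM in PBS, 93.7 CPM in LPS 24 h, 82.7 CPM in LPS with antibody at 24 h, 31.6 CPM in LPS 72 h and 83.7 CPM in LPS with antibody at 72 h. Smn1 averaged 38.3 CPM in PBS and 38.8 CPM in LPS 72 h, and 75.4 to 92.9 CPM in the other groups. As with Myd88, the mean levels of both genes in LPS 72 h were close to those in PBS.

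Markers of other cells that a sorted marrow fraction can hold were summed in the same libraries. The 10 neutrophil markers summed to 2093 to 12235 CPM in PBS and 2935 to 12319 CPM over the treated groups, and the groups overlapped. That sum mostly follows Mpo, which averaged 5409 CPM in PBS. Elane averaged 948 CPM there and each of the others 180 CPM or less. The 7 B-lymphoid and plasma cell markers tested summed to 373 to 1325 CPM in PBS and 69.0 to 88.9 CPM in LPS 24 h, without overlap. They summed to 61.4 to 153 CPM in LPS with antibody at 24 h, 145 to 371 CPM in LPS 72 h and 57.7 to 372 CPM in LPS with antibody at 72 h. The 8 erythroid markers were at 98.9 to 225 CPM in PBS, 91.0 to 176 CPM in LPS 24 h and 6.73 to 44.4 CPM in LPS 72 h. With the antibody they ranged from 18.6 to 428 CPM at 24 h and from 7.496 to 163 CPM at 72 h. Their part in the values of the 10 genes was not tested.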
